A study of Homo sapiens with 2 samples.

Results

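The IFIT family of RWPE-1 cells was described across 2 Agilent two-colour arrays. Its members were chosen by gene, as all non-control probes whose RefSeq accession belongs to IFIT1, IFIT2, IFIT3 or IFIT5, and 5 of the 42405 probes of the array met this rule, for 4 of 19740 named genes. All 5 exceeded background clearly in Cy5 and in Cy3, on the array with normal labelling as on the swap, and carried no outlier spot, so that every member entered the 25664 measured probes, which represent 13812 genes. RWPE-1 is a noncancerous prostate epithelial cell line that had been immortalised with a human papillomavirus. It was grown in serum-free keratinocyte medium and transfected with 30 nM of a precursor of the microRNA miR-424 (pre-miR-424) or with 30 nM of a negative control precursor. On the array with normal labelling the pre-miR-424 RNA carried Cy5 and the control RNA Cy3, and on the dye swap the dyes were exchanged. The labels call the arrays technical replicates, so they counted as 1 replicate. There is therefore no p-value. Values are given per array or as the mean of both arrays, and the spread between the arrays covers labelling and hybridisation only. The family was picked because of this contrast, so its ratios are a description.

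IFIT proteins (interferon-induced proteins with tetratricopeptide repeats) bind foreign or incompletely modified RNA and keep it from being translated. They are scarce in most resting cells and are induced when RNA sensors such as RIGI and IFIH1, or interferon itself, activate transcription factors such as STAT2 and IRF9, which bind an interferon-stimulated response element in the promoters of their target genes. IFIT1 binds the cap of messenger RNA that lacks ribose methylation, IFIT3 binds and stabilises IFIT1, IFIT2 joins this complex and has been linked to apoptosis, and IFIT5 binds RNA with phosphates at its free end without needing the others.

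The transfected microRNA is shown with its seed, bases 2 to 8, in capitals, since the seed sets which messenger RNAs it pairs with. The labels do not name an arm, and the 5p arm is given (RefSeq, GRCh38.p14, chrX:134546680-134546701, minus strand).
hsa-miR-424-5p: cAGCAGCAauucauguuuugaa
The same seed occurs in miR-15a, miR-15b, miR-16, miR-195, miR-497 and miR-6838 of the reference table. Transcripts of the IFIT genes were not analysed here, so no search for matches to this seed was made.

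The promoters of the members are shown because all members were higher in the same cells. The RefSeq table (GRCh38.p14) held windows of 250 bases before to 50 bases after the start of IFIT1, IFIT3 (with 2 starts) and IFIT5, and of IFIT1B, a paralogue inside the cluster that is no member. IFIT2 had no entry. Capitals mark matches to the interferon-stimulated response element, searched on both strands as GAAA, any 2 bases and GAAA again. The windows lie on the plus strand of chromosome 10.
IFIT1 (chr10:89392373-89392672): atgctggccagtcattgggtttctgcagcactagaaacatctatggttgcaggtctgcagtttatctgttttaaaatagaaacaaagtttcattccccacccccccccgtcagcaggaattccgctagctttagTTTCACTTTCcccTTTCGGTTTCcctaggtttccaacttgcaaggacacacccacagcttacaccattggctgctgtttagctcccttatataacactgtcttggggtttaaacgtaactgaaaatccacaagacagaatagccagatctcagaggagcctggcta
IFIT3, first start (chr10:89327747-89328046): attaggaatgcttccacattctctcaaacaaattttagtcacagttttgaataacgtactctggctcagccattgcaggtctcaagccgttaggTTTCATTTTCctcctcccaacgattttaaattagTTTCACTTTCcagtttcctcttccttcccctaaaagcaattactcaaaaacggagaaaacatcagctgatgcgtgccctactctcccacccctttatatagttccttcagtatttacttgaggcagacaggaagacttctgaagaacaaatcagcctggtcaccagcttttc
IFIT3, second start (chr10:89332279-89332578): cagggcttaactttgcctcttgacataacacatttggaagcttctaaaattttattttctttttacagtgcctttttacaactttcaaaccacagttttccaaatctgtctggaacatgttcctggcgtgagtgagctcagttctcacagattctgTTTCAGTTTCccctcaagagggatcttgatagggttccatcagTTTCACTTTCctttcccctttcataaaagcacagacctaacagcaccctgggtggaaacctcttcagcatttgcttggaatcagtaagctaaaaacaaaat
IFIT5 (chr10:89414318-89414617): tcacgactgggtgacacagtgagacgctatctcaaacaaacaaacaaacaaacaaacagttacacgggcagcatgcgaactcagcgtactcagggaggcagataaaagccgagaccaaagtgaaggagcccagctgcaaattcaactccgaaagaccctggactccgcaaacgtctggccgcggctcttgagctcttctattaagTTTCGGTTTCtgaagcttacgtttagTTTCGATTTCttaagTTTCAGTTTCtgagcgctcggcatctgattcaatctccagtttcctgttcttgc
IFIT1B (chr10:89377806-89378105): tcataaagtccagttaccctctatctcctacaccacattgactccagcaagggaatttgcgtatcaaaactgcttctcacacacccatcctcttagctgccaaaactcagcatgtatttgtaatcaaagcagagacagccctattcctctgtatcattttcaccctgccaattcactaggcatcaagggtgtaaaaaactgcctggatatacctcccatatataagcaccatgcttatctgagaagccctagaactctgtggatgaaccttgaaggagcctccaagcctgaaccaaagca

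The windows of IFIT1 and of both IFIT3 starts held 2 matches each and that of IFIT5 held 3, whereas that of IFIT1B held none. Of all 35116 windows in the table, 3.57% held at least 1 match. In IFIT1 the matches began 116 and 103 bases before the start site, only a few bases apart. In IFIT3 they began 156 and 122 bases before the first start and 94 and 51 bases before the second. In IFIT5 they began 45, 19 and 4 bases before the start, so that the last one ran across it. The letters TTTCACTTTC recurred in IFIT1 and at both starts of IFIT3, and TTTCGGTTTC in IFIT1 and IFIT5. The gamma-activated sequence, an element of promoters that respond to interferon gamma, was searched as TTCNNNGAA, whose reverse complement is the same. It matched in none of the 5 windows, against 7.66% of all windows. A match is a match of letters and no evidence of binding.

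**Figure D1:**
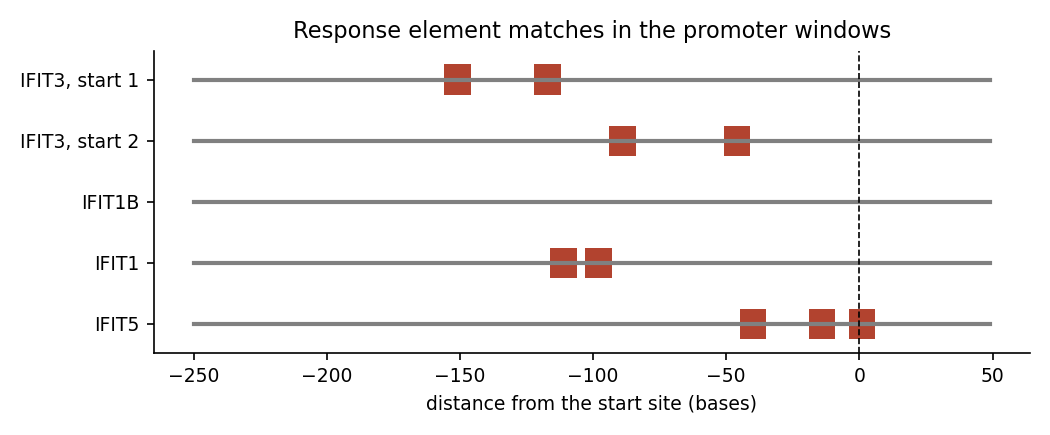
Matches to the interferon-stimulated response element (red) in the promoter windows, plotted by distance in bases from the start site (dashed line). IFIT1 and both starts of IFIT3 carry 2 matches, IFIT5 carries 3 close to its start, and IFIT1B carries none.

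All 4 IFIT genes were higher in cells with pre-miR-424 than in control cells on both arrays. The mean log2 ratios of pre-miR-424 over control were 0.81 for IFIT1, 0.74 for IFIT3, 0.51 for IFIT2 and 0.41 for IFIT5, each by the brightest probe of the gene. Their median was 0.62 (1.54-fold), with 0.62 for normal labelling and 0.63 for the swap. Over all measured genes the median was −0.0042. None of the 5 probes reached 2-fold on either array. All 5 were well above background in the control RNA as well, and no untransfected cells were included.

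IFIT1 (NM_001548, probe A_23_P52266) gave the highest mean ratio of the family. Its spots had a mean signal of 30106 in Cy5 for pre-miR-424 and 10150 in Cy3 for control on the normal array, and of 15180 in Cy3 for pre-miR-424 and 18647 in Cy5 for control on the swap. The Cy5 signal was thus the larger one on both arrays, whichever RNA it carried, so the RNAs were also compared within each dye. Within Cy5 the unnormalized signal was 1.61-fold higher with pre-miR-424, and within Cy3 it was 1.496-fold higher, while the median measured probe stood at 0.907 and 0.874. After normalization the log2 ratios were 0.81 and 0.82 (SD 0.0076 between the arrays), that is 1.75-fold and 1.77-fold. The probe was printed as 2 spots, which gave 0.77 and 0.85 on the normal array and 0.84 and 0.80 on the swap. The spots of an array were therefore farther apart than the means of the arrays.

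IFIT3 (NM_001549, probe A_33_P3283611), the binding partner of IFIT1, followed closely. Its signals were 25655 for pre-miR-424 and 9305 for control on the normal array, and 12794 for pre-miR-424 and 16236 for control on the swap. The log2 ratios were 0.72 and 0.75 (SD 0.020), or 1.65-fold and 1.68-fold. It had a single probe of 1 spot, as did IFIT5.

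IFIT2 (NM_001547) was the only member with several probes. The brighter one (A_23_P24004, 2 spots) had signals of 13222 with pre-miR-424 and 5833 with control on the normal array, and of 7404 and 10641 on the swap. Its log2 ratios were 0.51 and 0.52 (SD 0.0052, 1.43-fold in the mean), with 0.56 and 0.46 for its spots on the normal array and 0.51 and 0.52 on the swap. The dimmer one (A_24_P304071, 1 spot) had signals of 1713 and 861 on the normal array and of 1109 and 1116 on the swap, and its ratios differed widely between the arrays, with 0.40 and 0.94 (mean 0.67, SD 0.38). Neither array gave a ratio below 0 for either probe, and the mean of the brighter one lay inside the range of the dimmer one. The average of both probes was 0.59.

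IFIT5 (NM_012420, probe A_24_P30194), which acts apart from the complex of the other members, had the lowest mean ratio of the family. Its signals were 4963 with pre-miR-424 and 2589 with control on the normal array, and 2980 and 4211 on the swap. The log2 ratios were 0.33 and 0.49 (mean 0.41, SD 0.12), or 1.26-fold and 1.41-fold. Within a dye the unnormalized signal was 1.18-fold higher in Cy5 and 1.15-fold higher in Cy3.

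**Figure D2:**
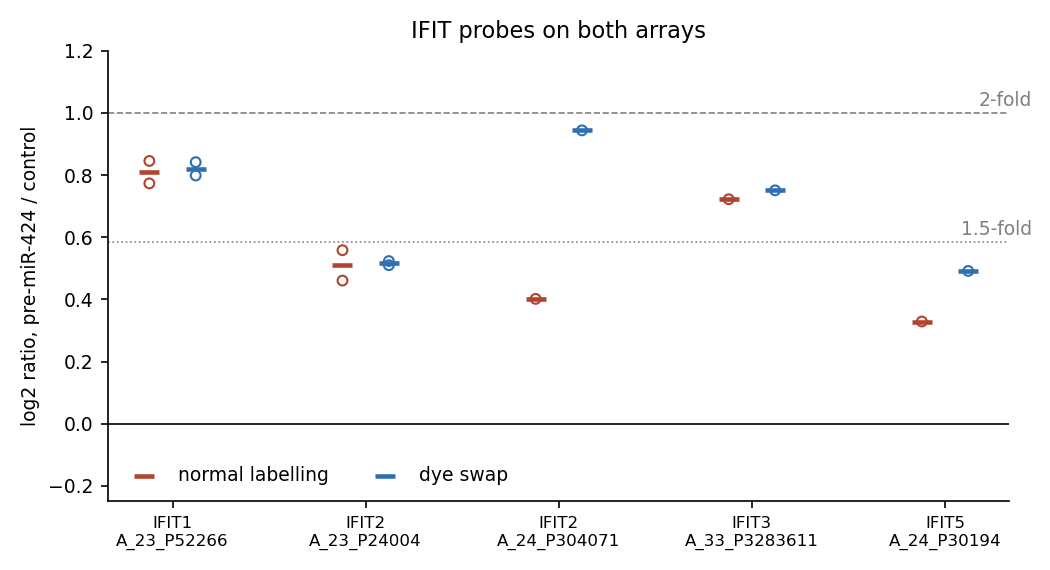
Log2 ratio of pre-miR-424 over control for each IFIT probe on the array with normal labelling (red) and on the dye swap (blue). Bars are the value of a probe on an array and circles its single spots. All values lie above 0 and below the 2-fold line, and the dimmer IFIT2 probe shows the widest gap, from 0.40 to 0.94.

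**Figure D3:**
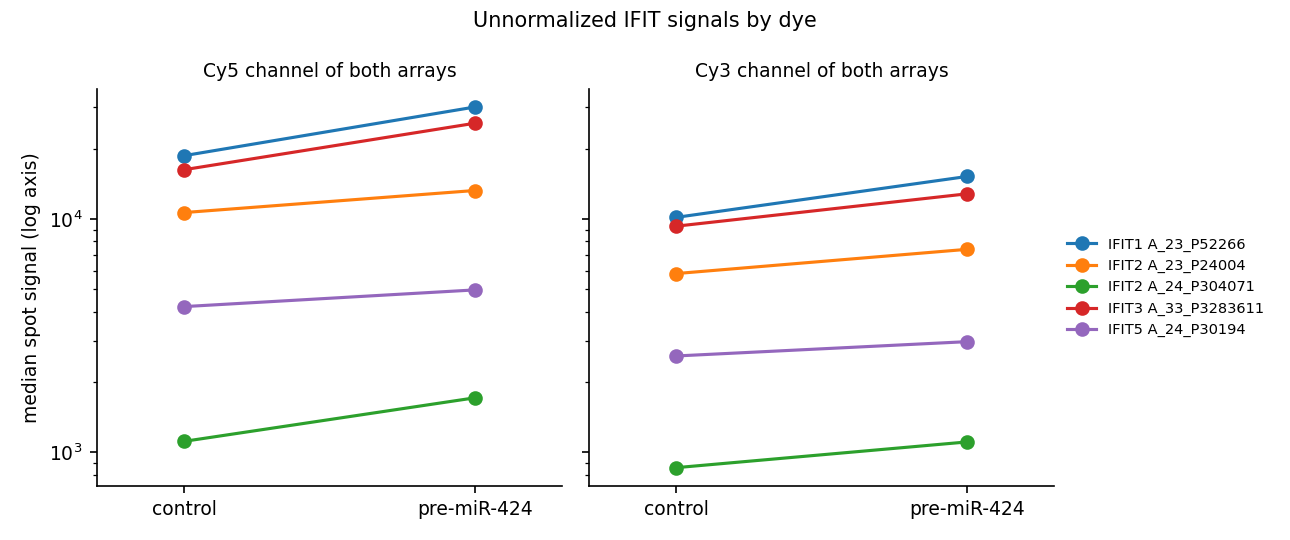
Unnormalized median spot signals (log axis) of the 5 IFIT probes in control and pre-miR-424 RNA, compared within Cy5 (left) and within Cy3 (right); each line joins the 2 arrays. Every line rises towards pre-miR-424 in both dyes, by 1.15-fold to 1.61-fold, while the median measured probe fell to 0.907 and 0.874 of its control signal. Levels of different probes cannot be compared.

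The order of the ratios was IFIT1, IFIT3, IFIT2 and IFIT5 on both arrays, but no step exceeded the error of a single array. IFIT1 exceeded IFIT3 by 0.087 and 0.069 on the log2 scale, which is close to the SD of 0.062 and 0.063 between spots of 1 probe within an array (median over 446 measured probes printed as 10 spots). IFIT3 exceeded IFIT2 by 0.21 and 0.23, more than this spread on both arrays, although with its dimmer probe IFIT2 would have passed IFIT3 on the swap. IFIT2 exceeded IFIT5 by 0.18 and 0.025, a mean of 0.10 with an SD of 0.11, so these genes could not be separated. Over all measured probes the error of a single array was 0.24, at least as large as each of these steps. It rests on the difference between an array and its dye swap, so it holds dye effects as well as noise.

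The part of a ratio that follows the dye, the mean of the unturned ratios of both arrays, was −0.0054 for IFIT1, −0.014 for IFIT3, −0.0037 for the brighter IFIT2 probe, −0.081 for IFIT5 and −0.27 for the dimmer IFIT2 probe, against an SD of 0.17 over all measured probes. For every IFIT probe the dye part was smaller than the mean ratio. This always holds when both ratios are above 0, so it adds nothing to that result. With a single dye swap, array noise cannot be told from a dye effect in this part.

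Among all measured genes, 0.319% had a higher mean ratio than IFIT1, 0.485% a higher one than IFIT3, 1.39% a higher one than IFIT2 and 2.34% a higher one than IFIT5. A ratio above 0 on both arrays was found for 5 of 5 IFIT probes and for 25% of all measured probes, while 26.4% of all lay below 0 on both. At 1.5-fold on both arrays, 2 of the 5 probes (IFIT1 and IFIT3) were higher, against 0.421% of all, and 0.429% were lower. At 2-fold the count was 0 of 5, against 0.0546%, and 0.0857% were lower. These contrasts chose the family, so nothing is read from the counts. The call at 1.5-fold depended on the loess step. When each array was only centred on its median, IFIT1 gave 1.13 and 0.40 and IFIT3 1.02 and 0.35, and no member passed 1.5-fold on both arrays, though all 5 probes stayed above 0.

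Genes of RNA sensing and interferon signalling were then examined, in lists chosen by role. Whether their ratios arose before or after those of the IFIT genes was not tested. In the arrays, which average over all cells, more cells with a transcript and more transcript per cell cannot be told apart. Of 11 RNA and DNA sensors and their adaptors, all were measured and none reached 1.5-fold on both arrays (0.623% of all measured genes were higher and 0.391% lower by this rule). Their median log2 ratio was 0.14, and 7 were higher and 0 lower on both arrays at any size, against 26.8% and 26.7% of all measured genes. The cytosolic RNA sensors had the largest values, with 0.49 and 0.66 for DHX58, 0.50 and 0.35 for IFIH1 and 0.55 and 0.28 for RIGI. MAVS, the mitochondrial adaptor of these sensors, gave 0.0020 and −0.22, and TLR3, the endosomal sensor of double-stranded RNA, −0.13 and 0.19. These 3 helicases had means from 0.41 to 0.58, whereas the arrays disagreed in sign for MAVS and TLR3.

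Among 7 interferon transcription factors the median was 0.43. IRF7 and IRF9 were 1.5-fold higher on both arrays and 0 were lower, against 0.623% and 0.391% of all measured genes. IRF9, the DNA-binding partner of STAT2, had ratios of 0.70 and 0.64, close to those of IFIT3. STAT2 gave 0.62 and 0.54, so both partners were above 0 on both arrays. IRF7, which drives interferon alpha genes and is itself interferon-induced, had 1.04 and 0.69. IRF3, which is present without induction and acts directly after the sensors, gave 0.15 and −0.15, and IRF2, a repressor of interferon targets, −0.0044 and −0.012.

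Several interferon genes could not be measured. IFNB1, IFNL3 and IFNG were not well above background in all channels. Of 12 measured ligand, receptor and kinase genes none reached 1.5-fold on both arrays (0.623% of all measured genes were higher and 0.391% lower). Their median was 0.030. IFNL1, an interferon lambda of epithelia, gave 0.12 and 0.082, and IFNK, an interferon of keratinocytes, 0.089 and 0.60. The receptor genes IFNAR1 and IFNAR2 gave means of 0.23 (0.042 and 0.42) and 0.15 (0.13 and 0.17).

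The IFIT genes lay inside the range of the other interferon effectors. Of 35 listed effectors 34 were measured, with a median of 0.59 and a range from −0.20 to 1.65, and 31 were higher and 1 lower on both arrays at any size (26.8% and 26.7% of all measured genes). By the 2-fold rule 6 were higher and 0 lower (0.0724% and 0.029% of all measured genes). By the 1.5-fold rule 15 were higher and 0 lower (0.623% and 0.391% of all measured genes). IFIT1 had a mean ratio of the size of those of USP18 (0.81), which removes ISG15 from proteins, of ISG15 (0.85) and of RSAD2 (0.85), an enzyme that makes a chain-terminating nucleotide. OAS1, which senses double-stranded RNA, had a larger mean of 1.06, from 0.90 and 1.22. Per array, USP18 gave 0.84 and 0.77, ISG15 1.00 and 0.70, and RSAD2 0.72 and 0.99. EIF2AK2, the kinase PKR that stops translation on double-stranded RNA, gave 0.089 and 0.30. The lists were assembled with earlier results of these arrays known and do not support a direction independently.

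Genes that act on the same RNA features as the IFIT proteins had small ratios. The 8 genes of cap methylation and RNA marking had a median of 0.048, and none reached 1.5-fold. CMTR1, which adds the ribose methyl group that hides a cap from IFIT1, gave 0.077 and −0.13, and CMTR2, which methylates the next nucleotide, −0.38 and 0.078. The 13 subunits of eIF3, the translation initiation factor that IFIT1 and IFIT2 are known to bind, had a median of −0.018. On both arrays 1 was higher and 1 lower, against 26.8% and 26.7% of all measured genes. EIF3E gave −0.030 and −0.12. The 12 other proteins with tetratricopeptide repeats had a median of −0.053, from −0.35 for TOMM34 to 0.11 for TTC4. None of the genes in these 3 lists passed 1.5-fold in either direction on both arrays. Of all measured genes 0.623% were higher and 0.391% lower by this rule, so these counts are near the share of all genes.

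**Figure D4:**
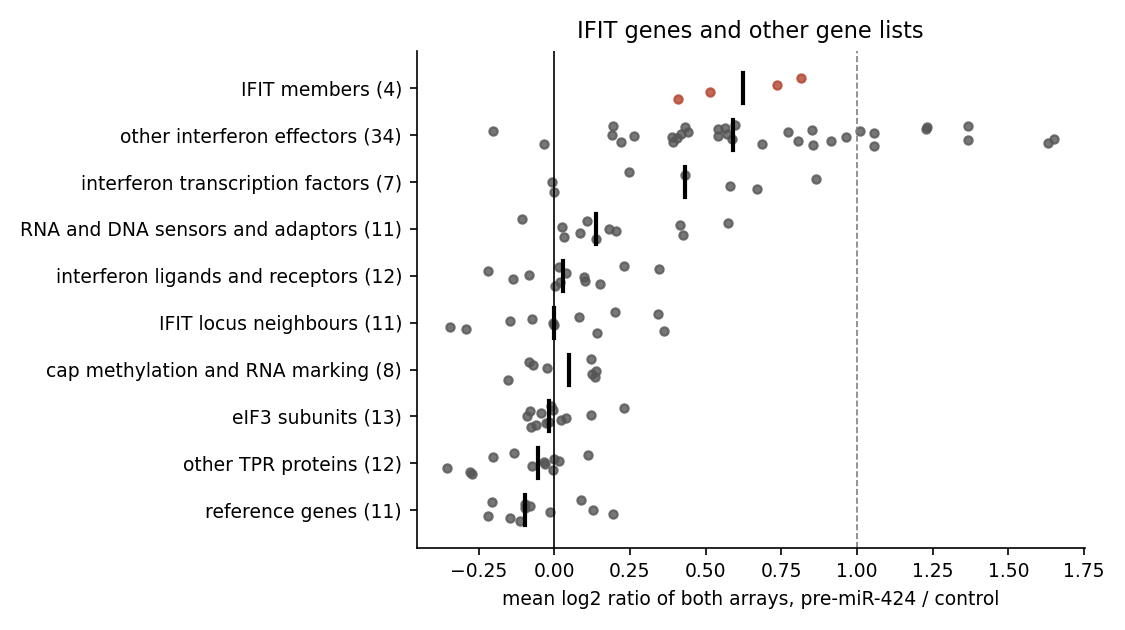
Mean log2 ratio of both arrays for the measured genes of each list (number in brackets), with the IFIT genes in red and the list median as a black bar. The dashed line marks 2-fold, points are spread vertically only to be seen, and the IFIT genes, from 0.41 to 0.81, lie inside the range of the other interferon effectors.

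The 4 IFIT genes lie next to each other on chromosome 10, in the order IFIT2, IFIT3, IFIT1B, IFIT1 and IFIT5, and the genes around them were compared. Only names and order were taken from the annotation (GRCh38.p14), as the array was designed on hg19. Of the 17 other protein-coding genes in a window that reaches 8 genes past the family on each side, 13 were measured. Their median log2 ratio was −0.0026, and 3 were higher and 3 lower on both arrays, a share close to the 26.8% and 26.7% of all measured genes. None was 1.5-fold higher on both, against 0.623% of all measured genes. CH25H, an interferon-induced cholesterol hydroxylase on the IFIT2 side, had the highest mean of the 13, with 0.43 and 0.30. The next neighbour of IFIT2, LIPA, a lysosomal lipase, gave 0.094 and 0.59. On the other side, SLC16A12, a transporter gene next to IFIT5, gave 0.45 and −1.14, so that the arrays disagreed, and PANK1 gave 0.067 and −0.069. IFIT1B (NM_001010987), between IFIT3 and IFIT1, was well above background in 0 channels, with signals of 86 and 59 on the normal array over backgrounds of 67 and 30, and of 86 and 57 on the swap over 64 and 27. No ratio can be given for it, and hybridisation of transcripts of one paralogue to the probe of another was not tested.

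**Figure D5:**
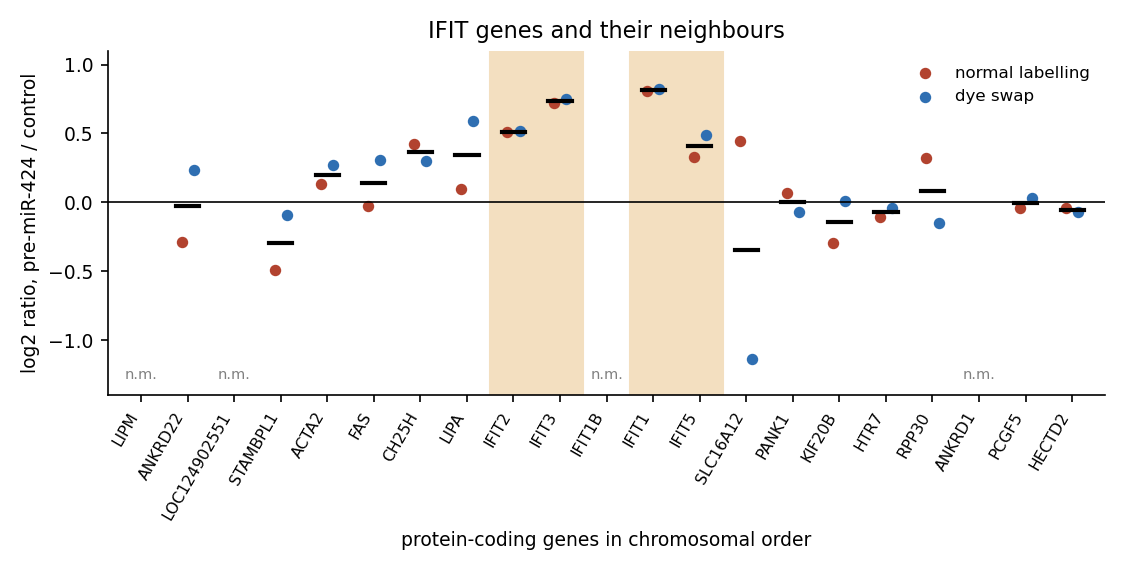
Log2 ratio of pre-miR-424 over control for the protein-coding genes around the IFIT family, in chromosomal order, on the array with normal labelling (red) and the dye swap (blue), with the mean as a black bar. Shaded genes are the 4 members and n.m. marks genes that were not measured; the members range from 0.33 to 0.82 on single arrays, and the next highest pair, of CH25H, is 0.43 and 0.30.

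Response element matches were also counted beyond the family. Of 28 listed interferon effectors with a promoter in the table, 20 had a match in at least 1 window, against 4.38% of all 27305 genes in the table. The effectors were listed for their role in the interferon response, so a high share with this element is no independent result. Of those with a promoter, 4 of 15 ligands and receptors, 2 of 8 sensors and adaptors and 2 of 8 eIF3 subunits also had one. None of 3 interferon transcription factors, 7 genes of cap methylation and RNA marking or 9 other proteins with tetratricopeptide repeats had a match. Among measured genes other than the members, 439 had a match, and 15 of these (3.42%) were at least 1.5-fold higher on both arrays. Of the 10516 without a match this held for 54 (0.514%). The median ratio of the 439 genes was 0.027, and that of the 10516 genes was −0.0069. The 439 genes include listed interferon effectors, which were chosen with earlier results of these arrays known. These shares also come from the contrast that chose the family, so nothing is read from their difference. A role of the element was not tested.

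The genes whose pair of ratios lay closest to the family medians, over the 2 arrays, were NNMT (0.61 and 0.63), RAB22A (0.63 and 0.62), UMPS (0.63 and 0.62), FAM43B (0.59 and 0.64) and SYNJ2BP (0.63 and 0.66), at distances of 0.0025 to 0.030 on the log2 scale. In all, 244 other genes of the 13812 measured genes had both ratios within the range of the members, 0.33 to 0.82. A pair of ratios in this range is thus not particular to the family.

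The labelled cell type was checked by its markers. All 6 markers of basal prostate epithelium were measured, with a median log2 ratio of −0.14. KRT5 gave 0.092 and −1.09 and KRT15 −0.22 and −0.54, while ITGA6 gave 0.25 and 0.40, so the basal markers did not move one way. Of the 6 luminal markers 3 were measured, KRT8 and KRT18 among them, while KLK3 and TMPRSS2 were not. Of the markers of other cell types 3 of 6 were measured for fibroblasts, 3 of 6 for immune cells and 1 of 4 for endothelium, with mean ratios from −0.30 to 0.17. Measured were COL1A1, COL3A1 and DCN for fibroblasts, PTPRC, CD68 and CD14 for immune cells, and CDH5 for endothelium. CD3E, PECAM1, VWF and KDR were among those not measured, and LYZ had no probe by name. The part of other cell types in the IFIT ratios was not tested.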

How the data were processed

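RNA of RWPE-1 cells with pre-miR-424 or control was hybridised to 2 two-colour arrays of 1 slide, read in 1 scan. As deposited, the scanner output holds for each spot and channel the median signal and local background as intensity, not normalized, with the processed signals of the software and its log10 ratio (Cy5 over Cy3). A deposited value table holds log2 ratios, also Cy5 over Cy3, whose steps are not given in the sources used here; they correlated with the unturned values computed here at 0.991 and 0.988, with column medians of 0.024 and 0.036.

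Median signals were background-corrected by normexp (offset 50, all spots) and normalized by loess without control spots in limma 3.58.1 (R 4.3.3). The offset draws ratios of dim probes towards 0. Spots were averaged and ratios turned to pre-miR-424 over control. Measured means well above background in Cy5 and Cy3, on each array, at most spots of a probe, with no outlier spot. Signals well above background were found at 66.8% to 70.1% of spots, and 0 were saturated. A symbol was found for 25769 of the 26599 RefSeq probes. The brightest measured probe stood for a gene, which was called at 2-fold or 1.5-fold in one direction on both arrays. Motifs and calls were computed in Python 3.11.15, and the calling rule was tested on simulated data.

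Groups came from the sample labels. Members and lists were chosen with earlier results of these arrays known. Named were all IFIT probes, up to 8 genes per list by role or extreme value, and the 5 genes closest to the family medians. SLC16A12, LIPA and PANK1 were named as neighbours. The number of arrays limits the precision. The alternatives were 12: offset, background, centring, 2 other sources of ratios, 3 filters, each array alone, the mean over probes and the threshold. Some genes of the lists are not reported here by name.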

Additional observations from a re-analysis of the deposited data

How the results depend on the processing

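The direction of the 4 IFIT genes was the same under all alternatives that were run. Their mean log2 ratios ranged from 0.76 to 0.82 for IFIT1, 0.69 to 0.75 for IFIT3, 0.46 to 0.59 for IFIT2 and 0.33 to 0.49 for IFIT5. The family median of 0.62 moved to 0.57 under median centring and to 0.66 with the mean over the probes of a gene, which brings in the dimmer IFIT2 probe, and was 0.62 to 0.63 with either array alone. Median centring shifted the median of all measured probes to 0.10 with normal labelling and to −0.18 after the swap. No IFIT probe passed 2-fold under any of these settings, whereas 2 passed 1.5-fold in the reported run, 0 under median centring and 3 on the swap alone. The 6 interferon effectors at 2-fold were 4 under median centring, 7 with an offset of 16 or the scanner ratios, 8 with the mean over probes, 8 and 9 with a single array and 15 at 1.5-fold. Over all probes, 36 passed 2-fold on both arrays, against 67 with the ratios of the scanner software, 86 and 133 with a single array and 218 at 1.5-fold. The last counts follow from the dropped repeat and the lower threshold, while for the scanner ratios the cause was not tested. No paired analysis was possible because each array already holds both RNAs and there is 1 group. The dimmer IFIT2 probe kept its gap between the arrays without background correction (0.40 and 0.95).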
